A study of Mus musculus with 9 samples.

Results

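The 8 ligands of the tumour necrosis factor (TNF) superfamily followed here in natural killer (NK) cells were Tnf, Lta, Ltb, Fasl, Tnfsf10, Tnfsf14, Tnfsf11 and Tnfsf4. They were taken by symbol from the platform annotation, with the brightest probe set for each gene. Each of the 8 genes had 1 probe set that carried its symbol alone, so there was no choice between probe sets. They are 8 of 22180 genes with a probe set of their own, and 8 of 8 were among the 12579 genes bright enough to be tested. Splenic NK cells came from Tyk2-/- mice, which lack the Janus kinase TYK2, from Tyk2K923E mice, in which the kinase is present in an inactive form, and from wild-type (WT) mice. All groups were female mice on the C57BL/6N background, and every culture was made from spleen cells enriched by DX5 magnetic sorting and kept for 7 days with 5000 U/ml of human IL-2, so no group was without IL-2. Cells of 3 to 4 mice per genotype were pooled in each of 3 independent experiments, which gives 3 arrays per genotype and 9 arrays in all. How the Tyk2 alleles were made is not given in the sources used here.

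TNF superfamily ligands are made mostly as trimeric type II membrane proteins and act on receptors of the TNF receptor superfamily, which either recruit TRAF adaptors and activate NF-kappaB or, through a death domain, activate caspase-8. NK cells use Fas ligand (Fasl) and TRAIL (Tnfsf10) to kill target cells by contact, and TNF (Tnf) and lymphotoxins (Lta, Ltb) to signal to macrophages, dendritic cells and stroma. LIGHT (Tnfsf14), RANKL (Tnfsf11) and OX40 ligand (Tnfsf4) act mainly on neighbouring immune and stromal cells. TYK2 acts at the receptors for type I interferon and for IL-12, upstream of STAT proteins, and Tnfsf10 is a known interferon-inducible gene.

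Ltb, Tnf and Lta lie next to each other on chromosome 17, in that order in the RefSeq table (GRCm38.p6), and the 3 genes differed in the same direction between Tyk2K923E and WT cells. The 250 bases before the annotated start of each are shown for that reason, 5′ to 3′ on the strand of the gene, from RefSeq (GRCm38.p6). They lie at chr17:35202008-35202257 on the minus strand for Tnf, at chr17:35205352-35205601 on the minus strand for Lta and at chr17:35194257-35194506 on the plus strand for Ltb. Capitals mark every match, on either strand, to 1 of 4 motifs: TTCNNNGAA (the STAT type), GAAA and GAAA with 2 bases of any kind between them (an interferon-response type), GGG and CC with 5 bases of any kind between them (a loose kappaB type), or TATAAA.
Tnf: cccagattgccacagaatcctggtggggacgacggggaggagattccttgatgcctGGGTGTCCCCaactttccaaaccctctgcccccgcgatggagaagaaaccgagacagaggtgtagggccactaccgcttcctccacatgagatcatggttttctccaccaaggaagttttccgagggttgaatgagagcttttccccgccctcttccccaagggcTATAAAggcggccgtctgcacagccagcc
Lta: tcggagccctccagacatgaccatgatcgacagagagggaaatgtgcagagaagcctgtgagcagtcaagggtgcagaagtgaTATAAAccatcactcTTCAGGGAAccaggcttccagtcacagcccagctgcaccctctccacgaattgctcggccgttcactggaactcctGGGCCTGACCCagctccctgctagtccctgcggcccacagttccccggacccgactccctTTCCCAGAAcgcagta
Ltb: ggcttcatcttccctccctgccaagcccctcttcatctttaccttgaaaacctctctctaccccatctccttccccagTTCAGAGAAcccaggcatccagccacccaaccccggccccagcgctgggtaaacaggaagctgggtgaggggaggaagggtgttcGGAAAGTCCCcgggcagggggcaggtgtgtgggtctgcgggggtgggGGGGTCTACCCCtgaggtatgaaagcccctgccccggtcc
The Tnf window held GGGTGTCCCC at position -194 and TATAAA at position -29, counted from -1 as the last base before the start, and no STAT-type match. The Lta window held the STAT-type matches TTCAGGGAA at -152 and TTCCCAGAA at -16, 2 overlapping kappaB-type matches and TATAAA at -167. The Ltb window held the STAT-type match TTCAGAGAA at -172 and 4 kappaB-type matches, of which GGAAAGTCCC at -87 stood alone and 3 overlapped each other. Windows of the same length before all 32851 starts in the table held a STAT-type match in 7.02%, an interferon-type match in 2.98%, a kappaB-type match in 45.8% and TATAAA in 12.4%. An entry in this table was found for 7 of the 8 ligands, all but Tnfsf4, and the 4 others with an entry (Fasl, Tnfsf10, Tnfsf14 and Tnfsf11) had no STAT-type match. A match describes the letters of the window and not a bound site.

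Array medians ranged over 5.42 to 5.48 (log2), and the 8 ligands stood above the median of their own array on each of them. The first principal component of the tested genes held 61.0% of the variance and set the 3 arrays of experiment 1 apart from the other 6. Genotypes were compared within experiments because each independent experiment held all genotypes. The probe set of Tyk2 read 9.55, 8.63 and 8.85 on the Tyk2-/- arrays of experiments 1, 2 and 3, against 8.63, 8.43 and 8.52 on the Tyk2K923E arrays and 8.68, 8.56 and 8.63 on the WT arrays. For this probe set Tyk2-/- was thus higher than WT in 3 of 3 experiments (difference 0.39, limma unadjusted p = 0.0298, adjusted p = 0.488). It was also higher than Tyk2K923E, by 0.49 (limma unadjusted p = 0.0109, adjusted p = 0.452). Neither the deleted part of the gene nor the positions of the probes are given in the sources used here, so this reading checks nothing about the labels. NK cell markers were above the array median on all 9 arrays in 11 of 11 genes, and T cell markers in 11 of 12. In bulk RNA, fewer cells of a type and less RNA per cell cannot be told apart.

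Differences below are on the log2 scale from limma with the experiments paired, with the 95% confidence interval from that fit, and 2 rules are used to count them: an adjusted p (Benjamini-Hochberg over the 12579 genes) under 0.05, and an unadjusted p under 0.05. Tyk2K923E and Tyk2-/- are each set against the same 3 WT arrays, so these comparisons are not independent of each other, and the mutants were also compared directly.

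The lymphotoxin and TNF genes of chromosome 17 were at their lowest in Tyk2K923E cells. Lta encodes lymphotoxin alpha, a secreted homotrimer that also joins lymphotoxin beta at the cell surface. It read 8.27, 8.06 and 8.11 on the Tyk2-/- arrays of experiments 1, 2 and 3, 7.67, 7.52 and 7.27 on the Tyk2K923E arrays, and 7.98, 7.58 and 7.86 on the WT arrays. In each experiment the order was Tyk2-/- above WT above Tyk2K923E. The Tyk2-/- arrays overlapped neither the WT nor the Tyk2K923E arrays, whereas Tyk2K923E and WT overlapped. Between Tyk2-/- and WT the difference was 0.34 (interval 0.12 to 0.56, a 1.27-fold higher level, limma adjusted p = 0.377). Tyk2K923E differed from WT by -0.32 (interval -0.54 to -0.10, limma adjusted p = 0.283). The direct difference of Tyk2-/- from Tyk2K923E was 0.66 (interval 0.44 to 0.88, a 1.58-fold higher level, limma adjusted p = 0.117). For Tyk2K923E against WT, the unadjusted call was lost without experiment 1 (-0.33), without experiment 3 (-0.19) and without WT replicate 3 (-0.23), and the difference was -0.21 without Tyk2K923E replicate 3. The differences of Tyk2-/- from WT (0.24 to 0.43) and from Tyk2K923E (0.55 to 0.76) kept an unadjusted p under 0.05 in all 12 fits that left out 1 array or 1 experiment. Here and for the ligands below, leaving out an array of the genotype not compared changes only the p and not the difference.

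Ltb encodes lymphotoxin beta, the membrane anchor of the lymphotoxin heterotrimer. Its values were 9.80, 9.15 and 9.35 on the Tyk2-/- arrays, 9.42, 9.0 and 8.81 on the Tyk2K923E arrays, and 9.99, 9.34 and 9.50 on the WT arrays. Every genotype was highest in experiment 1, and the spread between experiments (0.58 between the highest and lowest experiment mean) exceeded that between genotypes (0.53), so the arrays of the genotypes overlapped. Within each experiment Tyk2K923E was lowest and WT highest. Tyk2K923E differed from WT by -0.53 (interval -0.72 to -0.35, 1.45-fold lower, limma adjusted p = 0.0696). This value missed the adjusted threshold, and passed it at adjusted p = 0.0405 with the stricter filter, 0.0342 with an intensity trend and 0.0433 with array weights. The limma adjusted p was 0.156 with only these genotypes in the fit, 0.214 without a filter and 0.221 with a random block. Without pairing the limma unadjusted p was 0.0496. Over all alternatives the adjusted p ranged from 0.0342 to 1. Tyk2-/- differed from WT by -0.17 (interval -0.36 to 0.01, limma adjusted p = 0.58), with -0.19, -0.19 and -0.15 in the 3 experiments; leaving out 1 array or 1 experiment gave -0.23 to -0.12, with an unadjusted p under 0.05 without replicate 2 or 3 of Tyk2K923E. Between the mutants Ltb differed by 0.36 (interval 0.17 to 0.55, limma adjusted p = 0.452), and without pairing the unadjusted call was lost.

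Tnf encodes TNF itself, an inflammatory cytokine that is shed from the membrane by ADAM17. The Tyk2-/- arrays read 9.68, 9.82 and 9.95, the Tyk2K923E arrays 9.30, 9.65 and 9.54, and the WT arrays 9.72, 9.72 and 9.91. The Tyk2K923E arrays lay below the arrays of both other genotypes with no overlap, and those of Tyk2-/- and WT overlapped. Tyk2K923E differed from WT by -0.29 (interval -0.47 to -0.11, 1.22-fold lower, limma adjusted p = 0.236), and by -0.42, -0.07 and -0.38 in experiments 1, 2 and 3. Without experiment 1 or experiment 3 that unadjusted call was lost (-0.22 and -0.25). Tyk2-/- differed from WT by 0.03 (interval -0.15 to 0.21, limma adjusted p = 0.928). The mutants differed from each other by 0.32 (interval 0.14 to 0.50, limma adjusted p = 0.452), and an unadjusted p under 0.05 remained in all 12 fits that left out 1 array or 1 experiment.

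**Figure D1:**
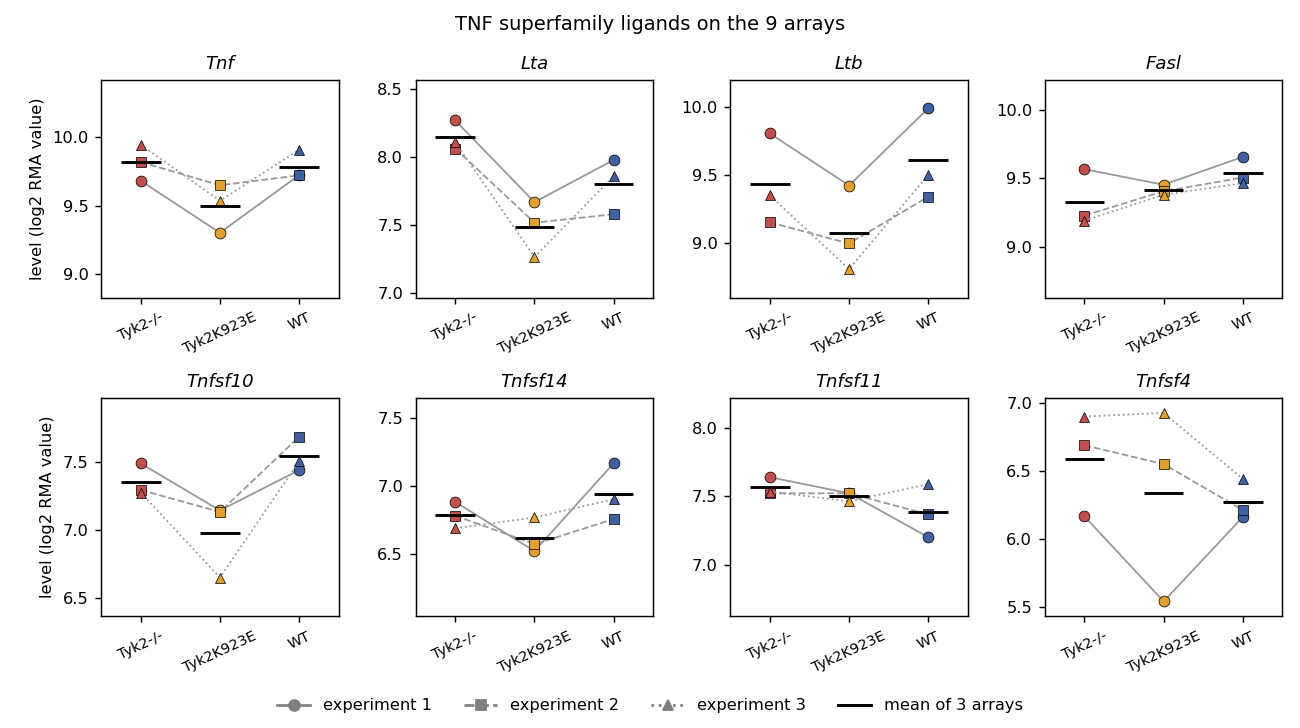
Level of each ligand (log2 RMA value, vertical axis spanning the same range of units in every panel) on the arrays of Tyk2-/-, Tyk2K923E and WT cells. Symbols and grey lines join the arrays of 1 experiment and black bars are means of 3 arrays; Lta runs Tyk2-/- above WT above Tyk2K923E in each experiment, and Ltb is highest in experiment 1 in every genotype.

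The death ligands Tnfsf10 and Fasl are the contact killing signals of the set, and by the unadjusted rule Tnfsf10 was lower in Tyk2K923E and Fasl in Tyk2-/- than in WT. Tnfsf10 encodes TRAIL, which triggers apoptosis through its death receptor on target cells. It had 7.49, 7.29 and 7.27 on the Tyk2-/- arrays, 7.14, 7.13 and 6.65 on the Tyk2K923E arrays and 7.44, 7.68 and 7.50 on the WT arrays. All Tyk2K923E arrays lay below all others, and experiment 3 of Tyk2K923E was the lowest of the 9 arrays. The difference of Tyk2K923E from WT was -0.57 (interval -0.83 to -0.31, 1.48-fold lower, limma adjusted p = 0.129). Its adjusted p ranged from 0.0499, with array weights, to 0.658 over the alternatives, and the difference lay between -0.70 and -0.42 when 1 array or 1 experiment was left out. Tyk2-/- cells differed from WT by -0.19 (interval -0.45 to 0.07, limma adjusted p = 0.662), higher in experiment 1 and lower in the other 2. That difference was -0.32 without WT replicate 1 and -0.31 without experiment 1, both with an unadjusted p under 0.05, but -0.086 without Tyk2-/- replicate 2, -0.090 without experiment 2 and -0.11 without WT replicate 3. The direct difference between the mutants was 0.38 (interval 0.12 to 0.64, limma adjusted p = 0.452), and fell short of an unadjusted call without Tyk2-/- replicate 1 (0.32), Tyk2-/- replicate 3 (0.32), Tyk2K923E replicate 3 (0.24) or experiment 3 (0.25).

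Fasl encodes Fas ligand, which NK and cytotoxic T cells store with lytic granules. It read 9.57, 9.23 and 9.19 on the Tyk2-/- arrays, 9.45, 9.41 and 9.38 on the Tyk2K923E arrays and 9.66, 9.51 and 9.47 on the WT arrays. WT was the highest genotype in each experiment. The Tyk2K923E arrays lay just under the WT arrays without overlap, and the Tyk2-/- arrays overlapped both. Tyk2-/- differed from WT by -0.21 (interval -0.38 to -0.05, 1.16-fold lower, limma adjusted p = 0.455). That unadjusted call was lost without pairing, without replicate 2 or 3 of Tyk2-/- (-0.18 and -0.17) or of WT (-0.21 each), and without experiment 2 or 3 (-0.18 each). The difference was -0.13 between Tyk2K923E and WT (interval -0.30 to 0.04, limma adjusted p = 0.617) and -0.08 between the mutants (interval -0.25 to 0.08, limma adjusted p = 0.705). With 1 array or 1 experiment left out, the difference between the mutants lay between -0.18 (without experiment 1) and -0.032 (without experiment 3), with an unadjusted p under 0.05 without experiment 1 or Tyk2-/- replicate 1. That of Tyk2K923E from WT lay between -0.17 (without Tyk2K923E replicate 3) and -0.062 (without Tyk2K923E replicate 1), with an unadjusted p under 0.05 without Tyk2-/- replicate 1.

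Tnfsf14, Tnfsf11 and Tnfsf4 encode ligands with costimulatory or differentiation roles, and of these Tnfsf14 alone had an unadjusted p under 0.05. Tnfsf14 encodes LIGHT, a ligand of the lymphotoxin beta receptor and HVEM. It read 6.88, 6.78 and 6.69 on the Tyk2-/- arrays, 6.52, 6.57 and 6.77 on the Tyk2K923E arrays and 7.17, 6.76 and 6.90 on the WT arrays. Tyk2K923E was below WT in each experiment, by -0.64 in experiment 1 and by -0.18 and -0.13 in the others, but the groups overlapped by 1 array. Its difference of -0.32 from WT (interval -0.57 to -0.07, limma adjusted p = 0.358) was -0.16 without experiment 1, -0.19 without Tyk2K923E replicate 1 and -0.21 without WT replicate 1, and none of these kept the unadjusted call. Tyk2-/- differed from WT by -0.16 (interval -0.40 to 0.09) and from Tyk2K923E by 0.16 (interval -0.08 to 0.41), both above an unadjusted p of 0.05. With 1 array or 1 experiment left out, the first lay between -0.25 (without experiment 2) and -0.044 (without WT replicate 1). The second lay between 0.034 (without Tyk2K923E replicate 1) and 0.29 (without experiment 3), and had an unadjusted p under 0.05 without Tyk2K923E replicate 3.

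Tnfsf11 encodes RANKL, which drives osteoclast formation through RANK. Its values were 7.64, 7.52 and 7.54 in Tyk2-/- cells, 7.52, 7.52 and 7.46 in Tyk2K923E cells and 7.20, 7.37 and 7.59 in WT cells. WT held both the lowest values and, in experiment 3, a value above every Tyk2K923E array. The difference from WT was 0.18 in Tyk2-/- cells (interval -0.04 to 0.40) and 0.12 in Tyk2K923E cells (interval -0.10 to 0.34), and Tyk2-/- minus Tyk2K923E was 0.06 (interval -0.16 to 0.28), with limma adjusted p of 0.619, 0.76 and 0.843. Leaving out 1 array or 1 experiment moved the difference of Tyk2-/- from WT between 0.050 (without experiment 1) and 0.30 (without WT replicate 3), and that of Tyk2K923E from WT between 0.0011 (without WT replicate 1) and 0.24 (without experiment 3). An unadjusted p under 0.05 was reached for Tyk2-/- without WT replicate 3 or experiment 3 and for Tyk2K923E without WT replicate 3.

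Tnfsf4 encodes OX40 ligand, a costimulator of T cells. It had 6.17, 6.69 and 6.90 on the Tyk2-/- arrays, 5.54, 6.55 and 6.92 on the Tyk2K923E arrays and 6.16, 6.21 and 6.44 on the WT arrays. Every genotype was lowest in experiment 1, and experiment means differed by up to 0.80, the widest range between experiments among the 8 ligands. Tyk2-/- differed from WT by 0.31 (interval -0.11 to 0.73, limma adjusted p = 0.646), higher in 3 of 3 experiments but by 0.00 in experiment 1. Without WT replicate 1 that difference was 0.56, and without experiment 1 it was 0.47, both with an unadjusted p under 0.05; without WT replicate 3 it was 0.17. Tyk2K923E differed from WT by 0.07 (interval -0.35 to 0.49, limma adjusted p = 0.947), lower in experiment 1 by -0.62 and higher in the other 2, and the sign turned without experiment 2 or 3 or without an array of Tyk2K923E or WT from either; without experiment 1 the difference was 0.41 and without Tyk2K923E replicate 1 it was 0.33, both with an unadjusted p under 0.05. The mutants differed by 0.25 (interval -0.17 to 0.66, limma adjusted p = 0.664), by -0.021 without Tyk2K923E replicate 1, by 0.056 without experiment 1 and by up to 0.42 without Tyk2K923E replicate 3.

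**Figure D2:**
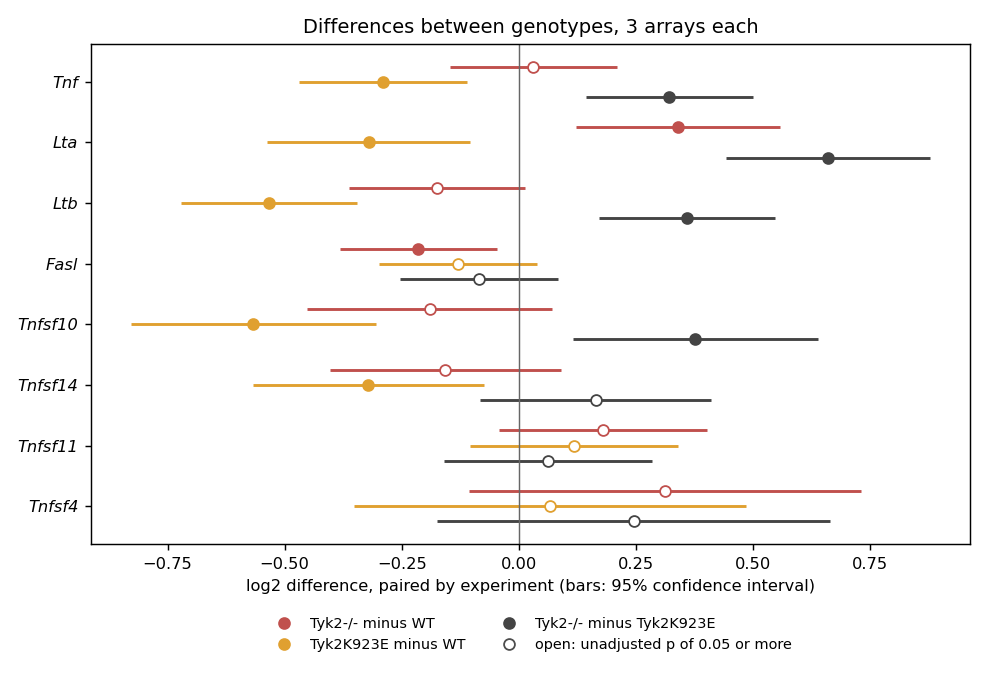
Log2 differences of the 8 ligands for the 3 comparisons, paired by experiment (points; bars are 95% confidence intervals, 3 arrays per genotype), with filled points for an unadjusted p under 0.05. Lta lies at 0.34 in Tyk2-/- and at -0.32 in Tyk2K923E relative to WT, and 4 ligands lie above 0 with a filled point between Tyk2-/- and Tyk2K923E.

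Counted over the 8 ligands, Tyk2K923E cells had 5 lower than WT at an unadjusted p under 0.05 (Tnf, Lta, Ltb, Tnfsf10 and Tnfsf14), where 5.14% of all genes tested were lower by this rule, and 0 higher, where 4.87% of all genes were. The number lower in 3 of 3 experiments was 6, against 14.6% of all genes, and 0 were higher in 3 of 3, against 16.2%. The Tyk2K923E arrays lay below the WT arrays without overlap for 3 ligands (Tnf, Fasl and Tnfsf10), as for 3.80% of all genes, and above them for 0, as for 3.43%. None of the 8 passed the adjusted threshold in limma, which 11 genes, 0.0874% of all, did. The median difference of the ligands was -0.31 and that of all genes 0.00. Without experiment 1, 2 were lower (Ltb and Tnfsf10) and 1 was higher (Tnfsf4), and without experiment 3, 3 were lower (Ltb, Tnfsf10 and Tnfsf14) and 0 higher.

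In Tyk2-/- cells 1 ligand was higher than WT at an unadjusted p under 0.05 (Lta, against 4.42% of all genes) and 1 was lower (Fasl, against 4.66%). Lta was also the 1 ligand whose arrays lay above WT without overlap (2.58% of all genes), and 0 lay below without overlap (2.74%). Lta and Tnfsf4 were higher in 3 of 3 experiments (16.5% of all genes), and Ltb and Fasl were lower in 3 of 3 (13.6%). The medians were -0.06 for the ligands and 0.00 for all genes, and 0 ligands passed the adjusted threshold in limma (11 genes, 0.0874%, did). The count of 2 in either direction was 1 (Lta) without pairing, 1 (Lta) without replicate 2 or 3 of Tyk2-/-, without WT replicate 2 or without experiment 2, and 4 without WT replicate 1, without experiment 1 or with these genotypes alone in the fit, each with 2 higher and 2 lower. Without WT replicate 3 or experiment 3 it was again 2, but these were Lta and Tnfsf11, both higher.

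Set directly against Tyk2K923E, Tyk2-/- cells had 4 ligands higher at an unadjusted p under 0.05 (Tnf, Lta, Ltb and Tnfsf10, against 4.79% of all genes) and 0 lower (4.89%). The same 4 were higher in 3 of 3 experiments (14.2% of all genes) and 0 were lower in 3 of 3 (14.3%). The arrays did not overlap for Tnf, Lta and Tnfsf10, which were higher (2.89% of all genes), and 0 were lower without overlap (2.62%). In this comparison 0 ligands and 3 genes, 0.0238% of all, passed the adjusted threshold in limma. The median difference was 0.28 over the ligands and 0.00 over all genes. Among the ligands, Lta alone lay above WT in Tyk2-/- and below it in Tyk2K923E in every experiment. How many of all genes tested share this pattern was not counted, so it does not set Lta apart from genes in general.

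**Figure D3:**
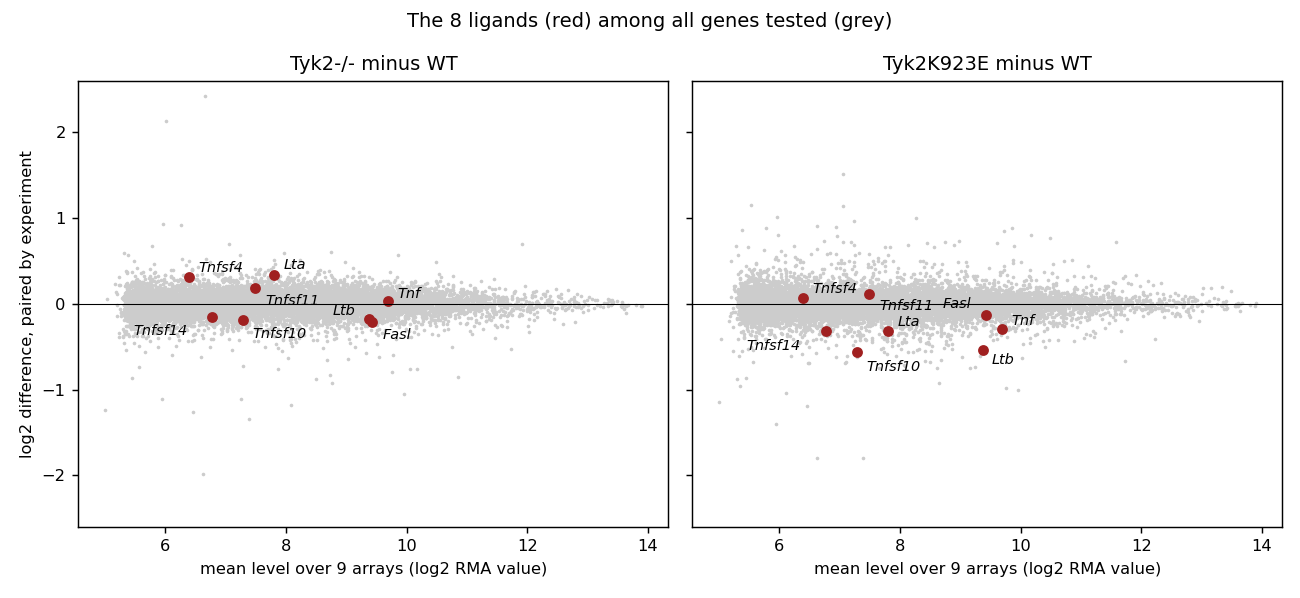
Log2 difference (vertical axis, paired by experiment) against mean level over 9 arrays (log2 RMA value) for all 12579 genes tested (grey) and the 8 ligands (red), for Tyk2-/- minus WT on the left and Tyk2K923E minus WT on the right. The ligands lie between -0.21 and 0.34 on the left and between -0.57 and 0.12 on the right.

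Markers of T cells, which also transcribe Lta, Ltb, Tnf and Fasl, were lower in Tyk2K923E cells as well. At an unadjusted p under 0.05, 6 of 11 tested T cell markers were lower in Tyk2K923E than in WT cells (Bcl11b, Lat, Cd8a, Cd8b1, Themis and Cd3d), with a median of -0.38 over the list, and Cd8a differed by -0.92 (limma adjusted p = 0.173). By the same rule 6 were higher in Tyk2-/- than in Tyk2K923E cells, and 0 of 11 had an unadjusted p under 0.05 between Tyk2-/- and WT. Of all genes, 5.14% were lower in Tyk2K923E than in WT and 4.79% higher in Tyk2-/- than in Tyk2K923E. The mean level over 12 markers was 8.07 to 8.36 on the Tyk2-/- arrays, 7.79 to 8.07 on the Tyk2K923E arrays and 8.08 to 8.48 on the WT arrays, and 0 of 12 lay under the array median on all arrays. By experiment, this mean differed between Tyk2K923E and WT by -0.51, -0.01 and -0.49 in experiments 1, 2 and 3. The mean of experiment 2 covers markers that went both ways: of 11 tested, 4 were lower in Tyk2K923E, Lat by -0.41, Bcl11b by -0.38, Cd8a by -0.15 and Cd28 by -0.09, and 5 were higher, by up to 0.19 (Themis). In that experiment Ltb differed by -0.34, Tnfsf10 by -0.55, Tnf by -0.07 and Lta by -0.06. Between Tyk2-/- and Tyk2K923E the mean over the markers differed by 0.35, 0.00 and 0.37, with single markers between -0.15 and 0.35 in experiment 2, and Lta differed by 0.60, 0.54 and 0.84. The part of T cells in these values was not tested.

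Other cell markers were compared in the same way. NK cell markers were lower in Tyk2K923E than in WT cells in 4 of 11 genes at an unadjusted p under 0.05 and higher in 1 (Prf1, 0.19), with Itga2 at -0.71 (limma adjusted p = 0.0375), the antigen of the DX5 antibody used for enrichment. In Tyk2-/- cells 5 of 11 were lower than in WT cells and 0 higher, with Klrd1 at -0.35 and Itga2 at -0.39 (limma adjusted p = 0.223 and 0.254). By this rule 5.14% of all genes were lower and 4.87% higher in Tyk2K923E than in WT. For Tyk2-/- the shares were 4.66% and 4.42%. Markers of group 1 innate lymphoid cells (ILC1), which carry TRAIL, were also counted. Of 4 tested, 2 were lower in Tyk2-/- and 3 in Tyk2K923E than in WT, against the same shares of all genes. Itga1 stood at -0.60 in Tyk2-/- and -0.39 in Tyk2K923E (limma adjusted p = 0.0345 and 0.0787). Cxcr6 stood at -0.72 in Tyk2-/- and -0.62 in Tyk2K923E (limma adjusted p = 0.0915 and 0.103). Inpp4b differed by -0.02 in Tyk2-/- and -0.36 in Tyk2K923E, and Cd200r1 by 0.16 and -0.21. Il7r of the same list lay under the array median on all 9 arrays and was not tested. The mean level over 5 ILC1 genes, Il7r included, was 7.07 to 7.10 on Tyk2-/- arrays, 6.79 to 7.22 on Tyk2K923E arrays and 7.18 to 7.39 on WT arrays. The basophil and mast cell genes Mcpt8 and Cpa3 were higher in Tyk2K923E than in WT cells, by 0.77 and 0.91 (limma adjusted p = 0.0684 and 0.19), while the other 4 of 6 genes of that list lay under the array median on all 9 arrays. Their mean level over 6 genes was 5.45 to 5.59 in Tyk2-/-, 5.56 to 5.84 in Tyk2K923E and 5.37 to 5.47 in WT. Of the monocyte and macrophage list, Cd14 was higher by 0.42 in Tyk2K923E than in WT (limma adjusted p = 0.102) and Cd68, the other gene tested, differed by -0.24 (limma adjusted p = 0.602). Of the neutrophil list, Mmp9 was lower, at -0.54 (limma adjusted p = 0.191), and Ly6g, the other gene tested, differed by -0.09 (limma adjusted p = 0.875). Mmp9 averaged 5.36 in Tyk2K923E, 5.41 in Tyk2-/- and 5.90 in WT. In both mutants it was thus near the array medians of 5.42 to 5.48 that the filter uses. In this list 4 of 7 genes lay under the array median on all 9 arrays. In Tyk2-/- cells Mcpt8 differed from WT by 0.49 and Cpa3 by -0.02 (limma adjusted p = 0.287 and 0.989), and Cd14 by 0.20 and Cd68 by -0.08 (limma adjusted p = 0.472 and 0.883). Mmp9 and Ly6g differed by -0.49 and -0.34 (limma adjusted p = 0.344 and 0.504). B cell genes lay under the array median on all arrays in 5 of 6 cases. Between the mutants, at an unadjusted p under 0.05, 1 of 11 NK cell markers was higher in Tyk2-/- (Itga2, 0.32) and 1 lower (Cd244a, -0.18). Of the 4 tested ILC1 genes, 2 were higher (Cd200r1, 0.37, and Inpp4b, 0.34) and 1 lower (Itga1, -0.21). Cpa3 (-0.93), Mcpt8 (-0.28) and Cd14 (-0.22) were lower as well. Of all genes, 4.79% were higher and 4.89% lower in Tyk2-/- than in Tyk2K923E. The part of these cell types in the ligand values was not tested.

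Receptors of the superfamily, which receive these signals, were counted beside the share of all genes. Of 22 tested receptor genes, 2 were higher and 2 lower in Tyk2K923E than in WT at an unadjusted p under 0.05, with a median of 0.01. By this rule 4.87% of all genes were higher and 5.14% lower. Tnfrsf8, the receptor CD30, averaged 10.74 ± 0.21 in Tyk2K923E and 10.27 ± 0.05 in WT cells (SD, n = 3 each), a difference of 0.47 (limma adjusted p = 0.173). Tnfrsf11b, the soluble decoy receptor osteoprotegerin that binds RANKL and TRAIL, averaged 7.54 ± 0.06 in Tyk2K923E and 6.82 ± 0.59 in WT (0.72, limma adjusted p = 0.29). Cd27, the receptor of CD70 and a stage marker of mouse NK cells, differed by -0.27 (limma adjusted p = 0.392), and Tnfrsf18, the receptor GITR, which stands outside the 3 smallest p and was named after its value was seen, by -0.24 (limma adjusted p = 0.488). In Tyk2-/- against WT, 2 receptors were higher, Tnfrsf8 by 0.34 and the TRAIL receptor Tnfrsf10b by 0.18, and 1 was lower, the BAFF receptor Tnfrsf13c by -0.18 (limma adjusted p = 0.439, 0.535 and 0.467). Of all genes, 4.42% were higher and 4.66% lower in that comparison. Between the mutants 0 were higher and 1 was lower, Tnfrsf13c by -0.17, with Ngfr at -0.18 and Tnfrsf10b at 0.16 next by p. There 4.79% of all genes were higher and 4.89% lower.

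Among the other ligands of the superfamily, 3 of 10 could be tested. Tnfsf8, the ligand of CD30, was lower in Tyk2K923E cells, with 7.61 ± 0.16 against 7.90 ± 0.08 in WT cells (SD, n = 3 each), a difference of -0.29 (limma adjusted p = 0.388). It differed from WT by -0.02 in Tyk2-/- cells and between the mutants by 0.28 (limma adjusted p = 0.477). Tnfsf9, the 4-1BB ligand, and Tnfsf13b, which encodes BAFF, differed by 0.12 and -0.03 in Tyk2K923E and by 0.03 and 0.07 in Tyk2-/- relative to WT, and between the mutants by -0.09 and 0.10, with no unadjusted p under 0.05.

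The signalling genes behind the receptors were counted by the unadjusted rule. In the list of adaptors, ubiquitin ligases and caspases, 3 of 25 were lower in Tyk2K923E than in WT at an unadjusted p under 0.05, namely the necroptosis kinase Ripk3 (-0.24), Rnf31 of the linear ubiquitin ligase (-0.18) and the adaptor Traf5 (-0.32), and 0 were higher (limma adjusted p of 0.358 to 0.439). Of all genes tested, 5.14% were lower and 4.87% higher. By this rule 2 of 25 were lower in Tyk2-/- than in WT, the ubiquitin ligase Birc2 (-0.19) and Rnf31 (-0.17), and 0 were higher, with Map3k7 at 0.12 next by p. The shares of all genes were 4.66% lower and 4.42% higher. Between the mutants Ripk3 (0.20) and Traf5 (0.29) were higher in Tyk2-/-, where 4.79% of all genes were. The NF-kappaB brake Tnfaip3 differed by -0.21 without an unadjusted call. Medians of this list were -0.04, -0.02 and -0.01 for Tyk2-/- minus WT, Tyk2K923E minus WT and Tyk2-/- minus Tyk2K923E.

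No gene of 13 in the NF-kappaB list and none of 15 in the list of ligand shedding and mRNA turnover had an unadjusted p under 0.05 in any of the 3 comparisons. The share of all genes was 4.42% to 5.14% per direction and comparison. Nfkbiz, an atypical inhibitor protein, differed from WT by -0.13 in both mutants, and the precursor gene Nfkb2 by 0.18 in Tyk2-/- and 0.17 in Tyk2K923E. Zfp36, whose product binds AU-rich elements and speeds the decay of Tnf mRNA, differed from WT by -0.12 in both mutants (limma adjusted p = 0.598 in Tyk2-/- and 0.587 in Tyk2K923E). Zfp36l1 of the same family differed by 0.18 between Tyk2-/- and Tyk2K923E (limma adjusted p = 0.523).

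Of the genes that surround Tnf, Lta and Ltb on chromosome 17, 5 of 6 were tested. None had an unadjusted p under 0.05 between Tyk2K923E and WT, with Lst1 at 0.15, Nfkbil1 at -0.13 and Atp6v1g2 at 0.04. Prrc2a was higher in Tyk2-/- cells, by 0.20 against WT and by 0.21 against Tyk2K923E (limma adjusted p = 0.524 and 0.478). By the unadjusted rule 4.42% and 4.79% of all genes were higher in these comparisons.

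**Figure D4:**
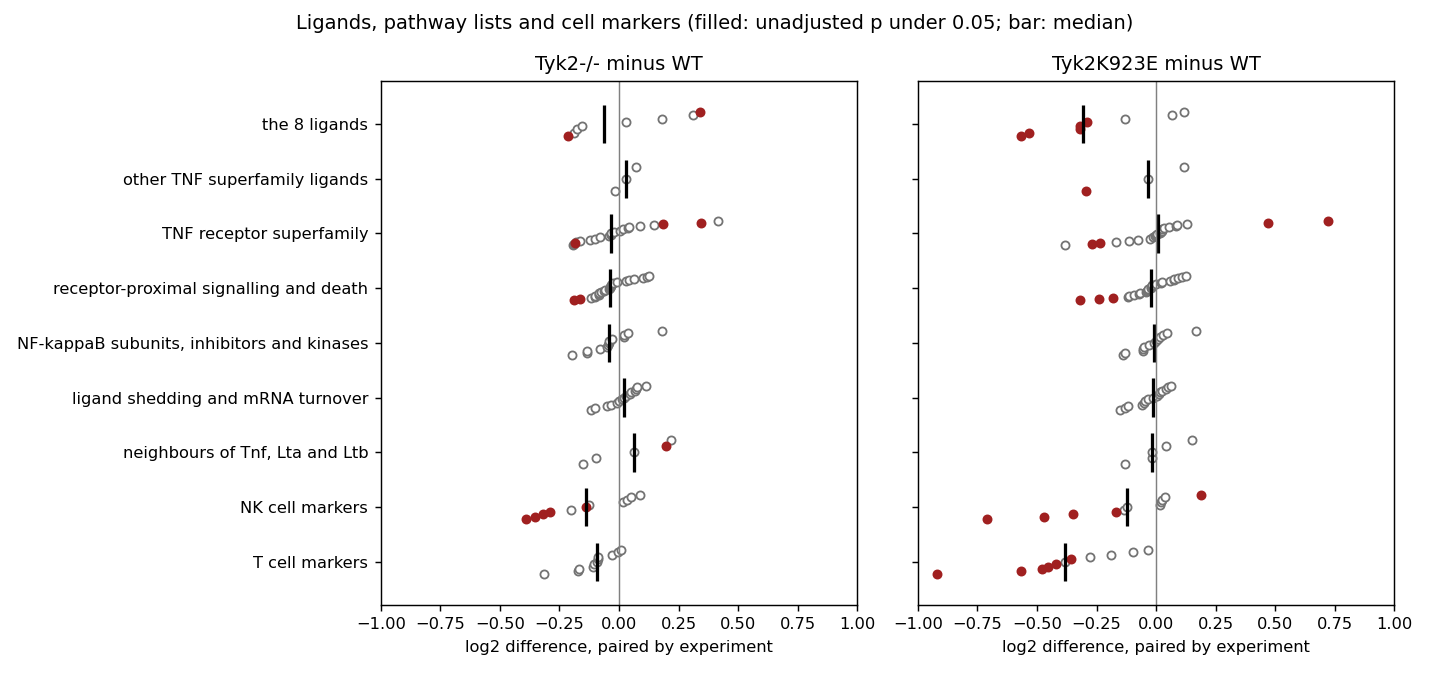
Log2 differences, paired by experiment, of the 8 ligands, of pathway lists and of NK and T cell markers (1 point per tested gene, filled at an unadjusted p under 0.05; vertical bars are medians), for Tyk2-/- minus WT on the left and Tyk2K923E minus WT on the right. On the right the ligands have a median of -0.31 and the T cell markers of -0.38, and the receptor list has 0.01.

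The pattern over the 9 arrays was described with the mean of each experiment taken off, as Pearson correlations that share arrays and genotypes and carry no test. Tnf correlated with Lta at 0.88 and with Ltb at 0.90, but Lta with Ltb at 0.66, over 9 arrays. Tnfsf10 correlated with Ltb at 0.93 and with Tnf at 0.76. Fasl, Tnfsf11 and Tnfsf4 correlated with Tnf at 0.06, -0.06 and 0.36. Among all genes tested, those most like Tnf were D930016D06Rik (0.99) and Tspan13 (0.98), those most like Lta were Sppl2b and Zfp592 (0.96 each), and those most like Ltb were Card6 and Pqbp1 (0.98 each). For Tnfsf10 they were Idua (0.98) and Lipg (0.97), and for Fasl Sptlc2 and Cpxm1 (0.97 each). For Tnfsf14 they were Zfp866 (0.99) and Nfx1 (0.97), for Tnfsf11 Pik3r4 and Tgfb1 (0.98 each), and for Tnfsf4 Gad1os (0.98) and Lcn2 (0.97). The closest matches were taken from 12579 genes.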

How the data were processed

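RNA of 9 pooled NK cell cultures was labelled with the Affymetrix WT PLUS kit, per the labels' protocols. The deposited values are log2 probe set values that the authors normalised with RMA in Partek 6.6, per the submitters' processing notes; the genome build and the RMA settings are not given in the sources used here. They ranged from 1.10 to 14.1 over 41345 probe sets and were used without further transformation. Probe sets were named through the platform annotation (23521 with 1 symbol, 1814 with several, 16010 not listed). Low values were filtered by requiring a single-symbol probe set to be at or above the array median on 3 or more of the 9 arrays; the brightest stood for its gene, which left 12579 genes. No background was measured, and the number of arrays limits the precision.

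All genes were fitted with limma 3.58.1 in R 4.3.3 (lmFit and eBayes, genotype plus experiment over all 9 arrays, 4 residual and 4.01 prior degrees of freedom). The titles and the series' design text give the experiment that arrays share. As a check, deviations of arrays from their genotype means correlated at 0.383 to 0.787 in 9 pairs of different genotypes from 1 experiment and at -0.71 to 0.559 in 18 pairs from different experiments. With 3 against 3 arrays an exact test cannot give a p below 0.1, and with 3 pairs not below 0.25, so p-values come from the fit. p-values measure the spread between pooled cultures that is left after genotype and experiment are fitted, drawn towards the spread of all genes. The procedure was tested on simulated data.

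Named genes were the 8 ligands, Tyk2, up to 3 genes with the smallest p per pathway list and comparison, cell markers past a call rule and the 2 genes most correlated with each ligand. The ligands, lists and tests were chosen with earlier results of these data known. Alternatives were no pairing or a random block, only the 2 genotypes compared, other filters, median centring, quantile normalisation, an intensity trend, array weights (statmod 1.5.0 for the random block), means over probe sets and leaving out each array or experiment. Promoter windows were read and figures drawn with Python 3.11.15 and matplotlib 3.10.9.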

Additional observations from a re-analysis of the deposited data

Results flagged for a closer look

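Lta is singled out because the 2 mutants lay on opposite sides of WT in each of the 3 experiments. Tyk2-/- differed from WT by 0.29, 0.48 and 0.25 and Tyk2K923E differed from WT by -0.31, -0.06 and -0.59 in experiments 1, 2 and 3. The share of all genes with this pattern was not counted. In the direct comparison Lta was higher in Tyk2-/- than in Tyk2K923E by 0.66 (limma adjusted p = 0.117, and 0.062 to 1 over the alternatives), so it did not pass over all genes. That comparison uses the same arrays, and its sign in each experiment follows from the rule that picked Lta, so it is no separate test of the pattern. In experiment 2 the difference of Tyk2K923E from WT was the smallest of the 3.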

How the results depend on the processing

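Of 525 values of the 8 ligands under the alternatives, 511 kept their direction and their side of the adjusted threshold, 4 passed it (Ltb in 3 settings and Tnfsf10 in 1, both Tyk2K923E minus WT) and 10 had the opposite sign. The 10 came from leaving out arrays or experiments, with ranges of -0.040 to 0.083 for Tnf in Tyk2-/- minus WT, -0.14 to 0.41 for Tnfsf4 in Tyk2K923E minus WT, and -0.016 to 0.12 for Tnfsf11 and -0.021 to 0.42 for Tnfsf4 in Tyk2-/- minus Tyk2K923E. Ligands with an unadjusted p under 0.05 in either direction numbered 2 in Tyk2-/- minus WT, but 1 with no replicate block, 4 with only these genotypes and 1 to 4 with arrays or experiments left out; 5 in Tyk2K923E minus WT, with 3 to 6; and 4 in Tyk2-/- minus Tyk2K923E, with 3 to 5. Tnfsf4 did not pass the 70th percentile filter, so it has no value there. Genes past the adjusted threshold in Tyk2-/- minus WT numbered 11, but 4 without the pairing, 6 with only these genotypes, 4 without a filter, 19 with the 70th percentile filter, 22 with an intensity trend, 26 with array weights and 3 to 11 with arrays left out. In Tyk2K923E minus WT they numbered 11, but 1 without the pairing, 2 with only these genotypes, 1 without a filter, 29 with the 70th percentile filter, 20 with median centring, 17 with quantile normalisation, 41 with an intensity trend, 66 with array weights and 1 to 34 with arrays left out. In Tyk2-/- minus Tyk2K923E they numbered 3, and 2 to 6 with arrays left out. The stricter filter tests fewer genes and leaving out arrays fewer samples; otherwise the cause was not tested. Pairing changed the unadjusted call of Fasl in Tyk2-/- minus WT and of Ltb between the mutants and of no other ligand. With 3 arrays per genotype, intervals of about 0.2 to 0.4 on either side limit what can be seen.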
